A study of Homo sapiens with 43 samples.

Results

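The clustered histone genes are the protein-coding genes whose symbols begin with H1-, H2AC, H2BC, H3C or H4C followed by a number. They were taken from the human gene table on hg38 coordinates, and 74 of 20037 protein-coding genes met this naming rule. The rule used no measured value. The members comprised 10 genes of linker histone H1, 17 of H2A, 19 of H2B, 13 of H3 and 15 of H4. On chromosome 6 lay 55 of them, including a block of 32 genes from 26017032 to 26285534, a block of 5 genes from 27132316 to 27147562 and a block of 16 genes from 27807479 to 27893891. A further 11 lay at 1q21 (chromosome 1, 149782689 to 149887965), 2 at 1q42 and 6 elsewhere. Their median length was 495.5 bp.

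Most of these genes encode the histones that package newly replicated DNA, and they are switched on together as cells enter S phase. Their short transcripts have no introns and end in a stem-loop that binds SLBP instead of carrying a poly(A) tail, and transcription is coordinated by NPAT at the histone locus body, a nuclear structure formed on the clusters. H2A, H2B, H3 and H4 form the nucleosome core, and H1 proteins bind the linker DNA between nucleosomes. CDK9 is the kinase of the elongation factor P-TEFb and phosphorylates the repeats of the RNA polymerase II tail. Phosphorylation at serine 5 (Ser5P) marks early transcription and that at serine 2 (Ser2P) marks elongation and the approach to the gene end.

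The data were chromatin immunoprecipitation with sequencing (ChIP-seq) from human cell lines established from diffuse large B-cell lymphoma, KARPAS422 and SUDHL5. Cells received 30 nM CDK-TCIP1 or vehicle, and all cultures contained DMSO at the same final share. CDK-TCIP1 is a bivalent molecule that links CDK9 to BCL6, a repressor of germinal-centre B cells. In KARPAS422, CDK9 was mapped with antibody CST2316S after CDK-TCIP1 for 2 h and DMSO for 2 h, with 2 lists each. In SUDHL5, CDK9 was mapped with ab239364 and with CST2316S, again with 2 lists each of CDK-TCIP1 and DMSO at 2 h. Also in SUDHL5, Ser5P (ab5131) and Ser2P (ab5095) had 2 lists, and total polymerase (Pol II, 8WG16) had 3 lists, each for CDK-TCIP1 at 2 h, CDK-TCIP1 at 4 h and DMSO at 4 h. For the polymerase targets, both treated times were therefore set against the same DMSO lists, and the comparison at 2 h also differed in culture time. Nothing in the labels says that replicates came from separate cultures, so p-values measure only the spread between these lists, which may be technical.

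Each list held the peaks the authors called in 1 sample, from 138 to 28951 peaks, and the read depth is unknown. A gene was counted where a peak came within 1 kb of either of its ends. Strength is given as the authors' fold enrichment and as the percentile of the peak within its own list by −log10 p, where 100 is the strongest. A gene without a peak is not shown to be unbound, since a shorter list can miss it. Neighbouring histone genes often shared a peak, so genes were not independent. Of 8 B-cell marker genes, all had a Ser5P peak in every DMSO and every 2 h list of SUDHL5, and of 4 myeloid and 4 other-tissue markers none did.

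The promoters of 4 members are shown because 3 of them, H2AC16, H1-5 and H4C16, had a peak in all 33 lists, while H1-6, the testis linker histone, lies in the largest chromosome 6 block and had none. Each sequence is the 250 bases before the RefSeq gene start on GRCh38.p14, read 5′ to 3′ on the gene's strand. Capitals mark short motifs found by letter match on either strand. The TATA box, which positions the start, was searched as TATAAA. The CCAAT box of many S-phase promoters was searched by the letters in its name. The octamer core, a site of the factor POU2F1, was searched as ATGCAAA. The H1 box of linker histone promoters was searched as AAACACA. The core of the site of HINFP, an activator of H4 genes, was searched as GTCCGC. Reverse complements are also in capitals, and no shown motifs overlap. H2AC16 lies at chr6:27865067-27865316 on the plus strand, H1-5 at chr6:27867589-27867838 on the minus strand, H4C16 at chr12:14771132-14771381 on the minus strand and H1-6 at chr6:26108136-26108385 on the minus strand.
H2AC16: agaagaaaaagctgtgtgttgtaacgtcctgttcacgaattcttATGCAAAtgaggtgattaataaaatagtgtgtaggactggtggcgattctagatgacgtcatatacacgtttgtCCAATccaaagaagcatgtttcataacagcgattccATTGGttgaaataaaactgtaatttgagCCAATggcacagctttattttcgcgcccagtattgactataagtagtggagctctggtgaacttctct
H1-5: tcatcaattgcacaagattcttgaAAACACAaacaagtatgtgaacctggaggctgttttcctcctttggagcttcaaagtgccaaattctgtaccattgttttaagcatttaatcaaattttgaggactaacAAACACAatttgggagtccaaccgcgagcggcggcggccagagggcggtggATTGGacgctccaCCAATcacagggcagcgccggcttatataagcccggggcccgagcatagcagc
H4C16: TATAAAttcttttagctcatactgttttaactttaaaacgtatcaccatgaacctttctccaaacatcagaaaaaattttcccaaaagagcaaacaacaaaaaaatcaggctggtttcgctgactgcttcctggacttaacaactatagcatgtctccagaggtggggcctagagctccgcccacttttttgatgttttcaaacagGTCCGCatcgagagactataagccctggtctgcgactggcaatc
H1-6: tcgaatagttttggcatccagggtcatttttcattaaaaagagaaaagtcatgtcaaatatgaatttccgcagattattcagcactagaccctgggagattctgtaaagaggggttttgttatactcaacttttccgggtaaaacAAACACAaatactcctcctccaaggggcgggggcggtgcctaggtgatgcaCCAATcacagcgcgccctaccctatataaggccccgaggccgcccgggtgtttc

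The motifs divided by histone type. An octamer core stood in 68.8% of 16 H2A promoters and 77.8% of 18 H2B promoters, against 3.75% of all 15843 promoters of the same length, which run from 250 bases before to 50 after the start. In the H2AC16 promoter it lay 206 to 200 bases before the start. An H1 box stood in 7 of 9 H1 promoters, against 4.24% of all promoters, and H1-5 held it at 226 to 220 and at 117 to 111 bases before the start. The promoter without any peak, H1-6, held the same H1 box at 105 to 99 bases and a CCAAT box at 54 to 50 bases. The HINFP core stood in the H4C16 promoter at 44 to 39 bases, and in 16.6% of all promoters. The TATAAA marked in H4C16 lay 250 to 245 bases before the start, at the far end of the stretch shown. Only exact letters were marked, so an unmarked promoter can still hold a variant of a motif. Over the 67 members with a promoter in the RefSeq table, 83.6% held a CCAAT box and 64.2% a TATA box, against 36.4% and 9.63% of all promoters. Over the 13 H4 promoters the HINFP core stood in 6. Among members with a promoter in the table, 50 had a peak in some list and 17 in none. A CCAAT box stood in 82% of those with a peak and 88.2% of those without, a TATA box in 68% and 52.9%, and an octamer core in 44% and 23.5%. The HINFP core stood in 18% of those with a peak and 0% of those without, and the H1 box in 10% and 29.4%. The sets differ in histone type, and these shares were not tested. A match describes these letters only and says nothing of binding.

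Across the 33 lists, 56 of 74 members had a peak in at least 1 list. The remaining 18 had none, where 46% of all genes had none. Outside total Pol II, from 32 to 55 members had a peak in each list, against 1.58% to 40.8% of all genes. H2AC16, H1-5 and H4C16 had a peak in every list and were among 19 such genes of 20037 (0.0948%). H1-5 and H2AC16 encode a replication-dependent linker histone and an H2A, lie next to each other and shared their strongest peak. H4C16 encodes the same H4 protein as the clustered genes but lies away from the clusters, on chromosome 12.

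**Figure D1:**
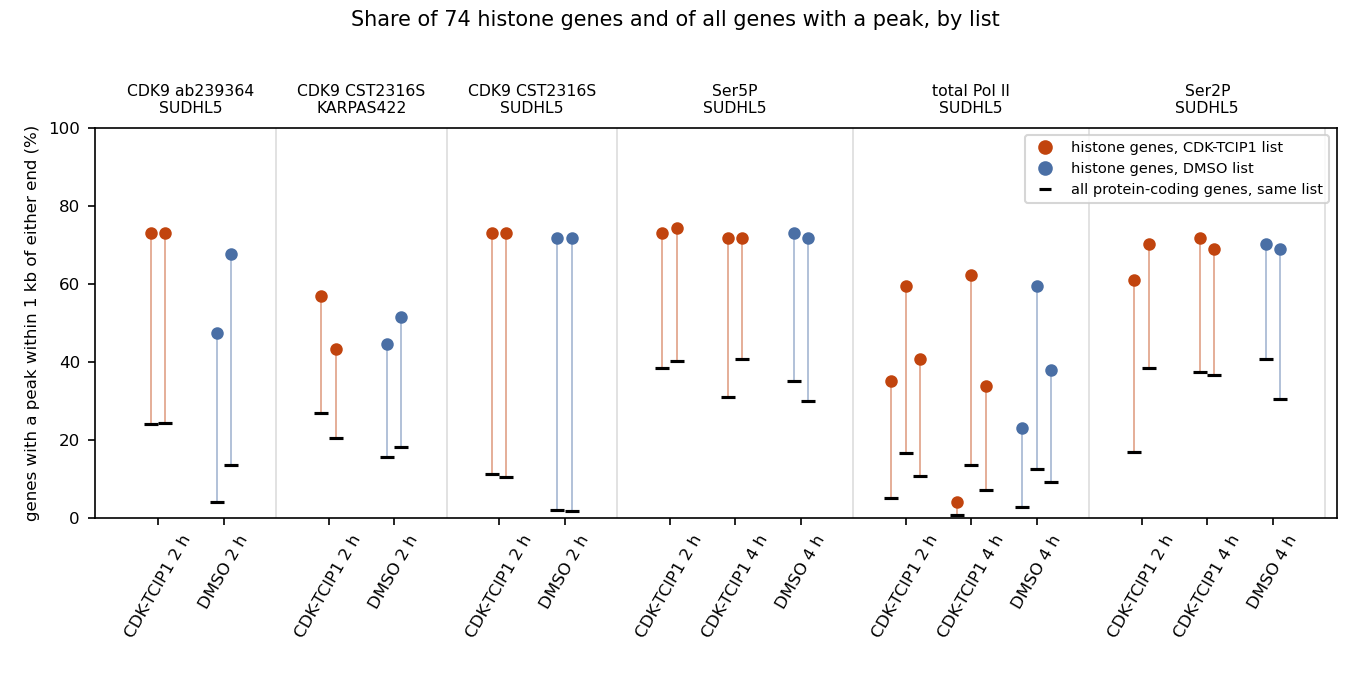
Points give the percent of the 74 histone genes with a peak within 1 kb of either end in each of 33 lists (vertical axis, %), with CDK-TCIP1 lists in orange and DMSO lists in blue, and dashes give the percent over all 20037 protein-coding genes in the same list. The 2 CST2316S DMSO lists of SUDHL5 cover 71.6% of histone genes but only 1.91% and 1.58% of all genes, and total Pol II varies most between replicates.

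In SUDHL5, CST2316S gave CDK9 peaks at nearly all histone genes that had a peak of any target, under CDK-TCIP1 and under DMSO. With this antibody, 54 members had a peak in both CDK-TCIP1 lists (background 8.46% of genes) and 53 in both DMSO lists (background 1.15%, 231 genes). Histone genes thus made up 3.19% of the genes with a peak in both treated lists and 22.9% of those with a peak in both DMSO lists. The lists differed in length, with 10005 and 9761 peaks under CDK-TCIP1, against 1611 and 1264 under DMSO. The 53 members with a peak in all 4 lists (background 1.13%) included 4 of 10 H1, 15 of 17 H2A, 13 of 19 H2B, 8 of 13 H3 and 13 of 15 H4 genes.

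The member added under treatment was H1-10, the linker histone formerly called H1x, which lies outside the clusters on chromosome 3 and is not tied to S phase. It was gained, with a peak in both treated lists and no DMSO list (background 6.31%), at a fold enrichment of 6.08 and 3.81. No member was lost (background 0%). Only 21 members lacked a peak in both DMSO lists and could be gained.

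Histone genes held the top of the DMSO lists and not of the treated lists. Of the 100 strongest peaks, none in either CDK-TCIP1 list lay at a histone gene, against 26 and 28 in the DMSO lists. The peak shared by H2AC16 and H1-5 ranked 563 and 345 from the top in the CDK-TCIP1 lists, and it ranked 1 in both DMSO lists. Its fold enrichment was 11.7 and 12.7 under CDK-TCIP1, against 26.3 and 18.0 under DMSO, and its width was 9708 and 10159 bp under CDK-TCIP1, against 4927 and 3743 bp under DMSO. The peak was thus lower in fold, lower in rank and wider in both treated lists, with no overlap between the groups. In both treated lists, however, it also took in the region from H3C11 to H4C13. That region was a separate peak in both DMSO lists, so the peaks compared do not have the same extent. H4C16 had a fold of 6.79 and 10.58 under CDK-TCIP1, against 8.28 and 5.04 under DMSO, so that the groups overlapped.

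The median percentile of all peaks at members was 84.1 ± 2.00 under CDK-TCIP1 and 97.2 ± 0.720 under DMSO (SD, n = 2 each). The difference of −13.2 had an exact two-sided permutation p of 0.333, the smallest that 2 against 2 lists allow, and 0.60 after Benjamini-Hochberg adjustment over 9 comparisons. The median fold at members did not fall with the rank: it was 10.2 and 11.1 in the treated lists, against 10.9 and 8.47 in the DMSO lists. Over all peaks the median fold was 4.57 and 4.31 in the treated lists, against 3.85 and 3.5 in the DMSO lists. Peaks covered 93.8 ± 10.1 kb of the chromosome 6 blocks under CDK-TCIP1 and 66.9 ± 1.74 kb under DMSO (exact permutation p = 0.333, n = 2 each). As a share of all bases covered by a list, this was 0.560% and 0.638% under CDK-TCIP1, against 4.18% and 5.25% under DMSO. List length moved with all of these values. When every list was cut to its 1264 strongest peaks, 20 and 32 members kept a peak in the treated lists, against 53 and 53 in the DMSO lists. The difference in members with a peak, 1.00 with whole lists, was then −27. Of all genes, 297 and 298 had a peak in the cut treated lists, against 312 and 317 in the cut DMSO lists.

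**Figure D2:**
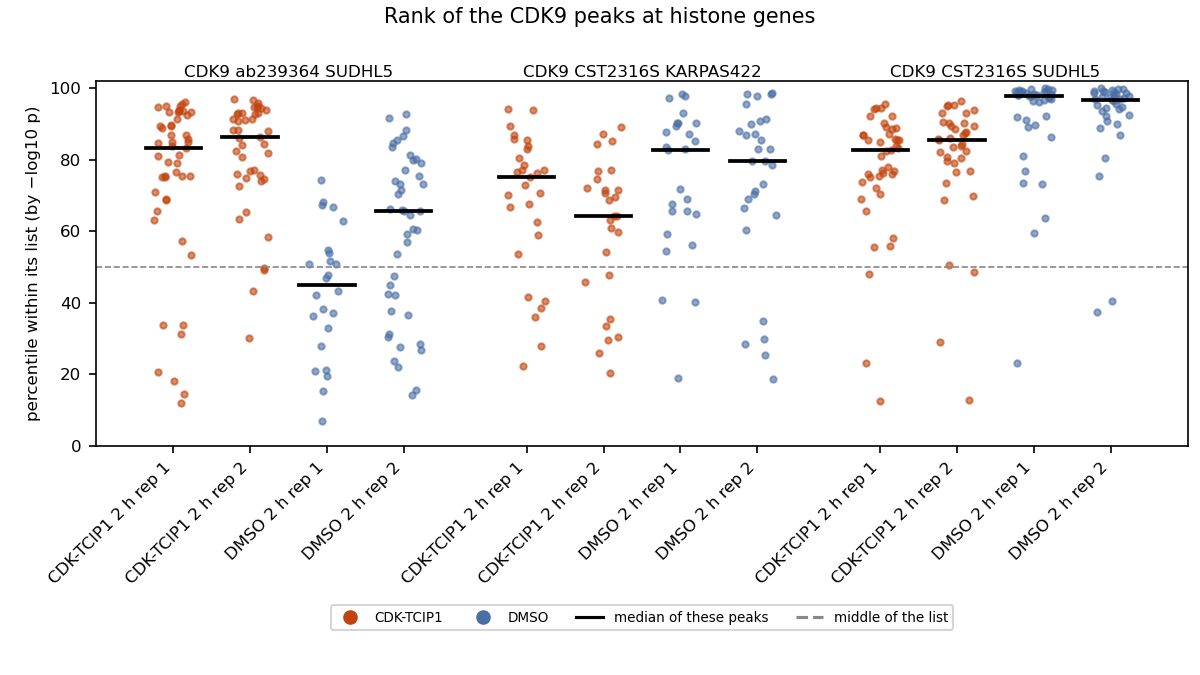
Each point is a peak at a histone gene in 1 of 12 CDK9 lists, placed by its percentile within that list by −log10 p (vertical axis), with CDK-TCIP1 in orange left of DMSO in blue and black bars at the medians. The medians lie below DMSO under CDK-TCIP1 with CST2316S in both lines and above DMSO with ab239364.

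The other CDK9 antibody gave the opposite rank difference. With ab239364 in SUDHL5, 54 members had a peak in both CDK-TCIP1 lists (background 18.9%) and 33 in both DMSO lists (background 3.73%). The same 33 had a peak in all 4 lists (background 3.69%). The DMSO lists disagreed, with 35 members among 915 peaks in replicate 1 and 50 members among 3508 peaks in replicate 2, against 54 members in each treated list of 9262 and 11148 peaks. Members with a peak averaged 54.0 ± 0 under CDK-TCIP1 and 42.5 ± 10.61 under DMSO (SD, n = 2 each, exact permutation p = 0.333). The median percentile was 84.8 ± 2.03 under CDK-TCIP1 and 55.4 ± 14.6 under DMSO, a difference of 29.4 (exact permutation p = 0.333, adjusted 0.60). Cut to the 915 strongest peaks of each list, 20 and 20 members remained under CDK-TCIP1, against 35 and 22 under DMSO. The differences in members (−8.50) and in rank (−4.17) turned negative. Of all genes, 633 and 520 had a peak in the cut lists under CDK-TCIP1, against 792 and 913 under DMSO.

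H1-10 and H2BC9 were gained with ab239364 (background 7.57%) and none was lost (background 0.00998%). H1-10 had folds of 7.75 and 6.07 in the treated lists and no DMSO peak, as it had with CST2316S. H2BC9, an H2B gene of the largest block, had folds of 3.95 and 10.1 in the treated lists, at percentiles 12.0 and 81.9. In replicate 2 this was the strongest peak of its neighbour H3C7, which entered the H2BC9 window but not the gene. In replicate 1 it was a separate, weaker peak, as the strongest H3C7 peak (fold 7.55) did not reach that window. H3C7 itself had an ab239364 peak in 1 of 2 DMSO lists. Without DMSO replicate 2, whose list was the longer, the count gained was 19 in place of 2. The share of all genes gained at that setting is not given here. In the whole set, 19 members with 2 treated peaks had a DMSO peak in 1 replicate only, among them H2AC18, H3C2, H4C5 and H2BC13. The same held for 1533 of all 20037 genes.

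In the H1-5 peak the antibodies differed as well. With ab239364 its fold was 8.65 and 7.41 under CDK-TCIP1, against 7.32 and 9.47 under DMSO, and its percentile was 93.7 and 92.9 under CDK-TCIP1, against 74.4 and 91.6 under DMSO. The folds overlapped between the groups, unlike those of CST2316S. H2BC12, an H2B gene of the block of 5 genes, had the highest mean percentile (88.8) among the 24 members with a peak in all 12 CDK9 lists. It is annotated over 8.57 kb, however, and its strongest peak lay at its start in some lists and at its far end, over the H4 gene H4C9, in others. At the start of H2BC12 alone the mean percentile was 84.4, below the 88.4 of H4C16. There the ab239364 fold was 19.4 and 7.62 under CDK-TCIP1, against 7.80 and 11.5 under DMSO. The CST2316S fold in SUDHL5 was 16.3 and 8.84 under CDK-TCIP1, against 20.8 and 15.8 under DMSO, so that the groups overlapped with either antibody. In KARPAS422 it was 7.53 and 4.10 under CDK-TCIP1, against 13.6 and 19.3 under DMSO, lower in both treated lists.

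The peak over H4C9, 1 of the genes for H4, differed from its neighbour at the H2BC12 start. Its ab239364 fold was 15.7 and 25.7 under CDK-TCIP1, against 5.72 and 12.3 under DMSO. Its CST2316S fold in SUDHL5 was 21.9 and 26.9 under CDK-TCIP1, against 10.3 and 14.3 under DMSO. With each antibody, both treated lists of SUDHL5 lay above both DMSO lists in fold at H4C9. By percentile, the ab239364 peak stood at 93.5 and 97.1 under CDK-TCIP1, against 42.2 and 85.6 under DMSO. The CST2316S peak in SUDHL5 was lower in rank when treated, at 95.7 and 95.2, against 97.2 and 97.8 under DMSO. In KARPAS422 the fold was 8.12 and 7.37 under CDK-TCIP1, against 5.21 in 1 DMSO list and no peak in the other. H3C1, the leading H3 gene of the 24, had ab239364 folds of 10.8 and 13.3 under CDK-TCIP1, against 5.80 and 8.16 under DMSO. Its CST2316S folds in SUDHL5 were 15.6 and 12.9 under CDK-TCIP1, against 6.81 and 8.02 under DMSO. In KARPAS422 they were 9.95 and 5.885 under CDK-TCIP1, against 8.61 and 6.04 under DMSO, so that the groups overlapped. H2BC12 and H3C1 were picked by rank over both groups and H4C9 after its values were seen, so their folds are a description with no test.

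In KARPAS422, CDK9 was found at fewer histone genes. CST2316S peaks lay at 42 and 32 members under CDK-TCIP1, among 14554 and 10297 peaks, against 33 and 38 members under DMSO, among 6689 and 7804 peaks. The groups overlapped (37.0 ± 7.07 under CDK-TCIP1 and 35.5 ± 3.54 under DMSO, SD, n = 2 each, exact permutation p = 1.0). Peaks in both treated lists were found at 32 members (background 18.8%) and in both DMSO lists at 32 members (background 13%), and 31 members had one in all 4 lists (background 10.9%). No member was gained (background 4.38%) or lost (background 0.629%). The median percentile was 69.6 ± 7.71 under CDK-TCIP1 and 81.3 ± 2.22 under DMSO, a difference of −11.7 (exact permutation p = 0.333, adjusted 0.60). The H1-5 peak stood at percentile 67.6 and 71.6 under CDK-TCIP1, against 87.7 and 83.0 under DMSO. H4C16 had folds of 13.5 and 7.30 under CDK-TCIP1, against 4.93 and 7.05 under DMSO. Its fold was thus higher in either treated list than in either DMSO list. Its percentile was 89.28 and 84.32 under CDK-TCIP1, against 83.53 and 86.85 under DMSO, so that the groups overlapped in rank.

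The lines differed at particular genes. With the same antibody, members with a peak averaged 37.0 ± 7.07 in KARPAS422 and 54.0 ± 0 in SUDHL5 under CDK-TCIP1, and 35.5 ± 3.54 in KARPAS422 and 53.0 ± 0 in SUDHL5 under DMSO (exact permutation p = 0.333 each, n = 2 each). The KARPAS422 lists were the longer under DMSO. At 1264 peaks per list, 4 and 2 members remained in KARPAS422 and 20 and 32 in SUDHL5 under CDK-TCIP1. Under DMSO, 25 and 20 remained in KARPAS422 and 53 and 53 in SUDHL5. Of all genes, 410 and 419 had a peak in KARPAS422 and 297 and 298 in SUDHL5 under CDK-TCIP1 in these cut lists. Under DMSO these were 751 and 785 genes in KARPAS422 and 312 and 317 in SUDHL5. No difference between the lines in the effect of CDK-TCIP1 was detected in members with a peak or in rank by an exact permutation test (p = 1.0 for each), nor in covered kb (−2.23 kb in KARPAS422 and 26.96 kb in SUDHL5, exact p = 0.167). A p of this size in 2 against 2 lists does not show that the effects were alike.

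CST2316S peaks in all 4 SUDHL5 lists and in no KARPAS422 list were found at 22 genes, and 10 of them were histone genes: H2AC21 at 1q21, H4C4, H3C7, H2BC9 and H3C8 in the largest block, and H2BC13, H2AC13, H3C10, H2AC14 and H2BC14. The last 5 are neighbours at the start of the 16-gene block, where the map of CDK9 peaks shows no peak in any KARPAS422 list over 8.01 kb. Under DMSO alone the pattern held for 0.165% of all genes, and the reverse, a peak in both KARPAS422 and neither SUDHL5 list, for 11.1% of all genes and for H1-10 alone among members. A set of 30 members, among them H1-2, H1-4, H1-5 and H4C16, carried CST2316S peaks in all lists of both lines. No peak in both lists of a KARPAS422 group was found at any 1q21 gene, while all 6 of the 1q21 members with a peak anywhere had one in each SUDHL5 list with this antibody.

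**Figure D3:**
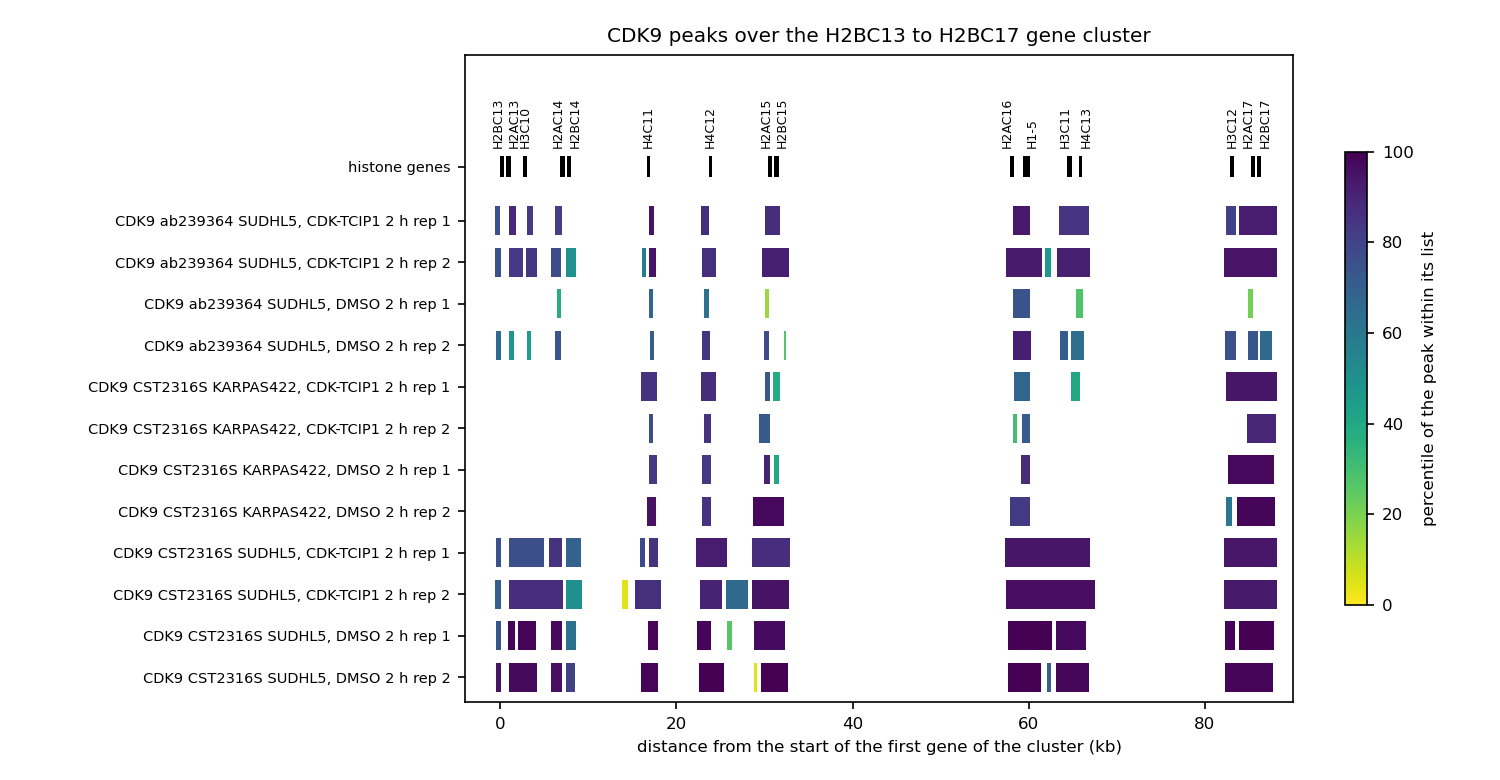
Bars mark CDK9 peaks in 12 lists over the 16-gene block, with the distance in kb from the start of H2BC13 on the horizontal axis, the genes as black boxes above, and colour for the percentile of the peak within its list. The H2BC13 to H2BC14 end is empty in all 4 KARPAS422 lists, and the peaks over H2AC16 to H4C13 merge into 1 wide peak in both SUDHL5 CST2316S lists under CDK-TCIP1.

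Over the 3 CDK9 sets together, members with a peak averaged 48.3 under CDK-TCIP1 and 43.7 under DMSO. The difference of 4.67 had an exact p of 0.278 when labels were permuted within each line, 36 relabellings in all. With the antibodies of SUDHL5 permuted separately, which gives 216 relabellings and a smallest p of 0.00926, the exact p was 0.222. With lists cut to equal length within a set, the difference was −13.2 with an exact p of 0.0556, the smallest those relabellings allow.

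Ser5P lay at nearly every active histone gene and was among the strongest signals of its lists. Peaks in both lists were found at 54 members under CDK-TCIP1 at 2 h (background 35.5%), 52 at 4 h (background 29.9%) and 53 under DMSO (background 27.2%). With the DMSO lists, all lists held a peak at 53 members for 2 h (background 26%) and at 52 for 4 h (background 23.9%). No member was gained at 2 h (background 2.73%) or 4 h (background 1.4%), and none was lost at 2 h (background 0.26%) or 4 h (background 0.419%). The H1-5 peak had a fold of 63.6 and 39.5 at 2 h, 36.9 and 36.6 at 4 h, and 49.0 and 19.1 under DMSO, so that the groups overlapped. H4C16 led the 52 members with a peak in all 6 lists, at a mean percentile of 99.6, followed by H2AC16 and H1-5 (99.3) and by H2BC21, H2AC20 and H2AC21 of 1q21 (99.2). The lowest of the 52 was H2BC10, at a mean percentile of 60.6. The median percentile of member peaks was 95.7 ± 1.32 at 2 h, 93.9 ± 1.60 at 4 h and 96.8 ± 1.15 under DMSO (SD, n = 2 each). The difference of −2.88 at 4 h had an exact permutation p of 0.333 (adjusted 0.60), and that of −1.08 at 2 h had an exact p of 0.667.

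H2BC6 and H1-10 stood outside this pattern. H2BC6 had its only peak of all 33 lists in a Ser5P list at 2 h, at a fold of 3.00 and the 3.11 percentile of that list. H1-10 had a Ser5P peak in all 6 lists, at a fold of 17.02 and 13.4 at 2 h, 14.3 and 13.3 at 4 h, and 14.6 and 10.9 under DMSO, although CDK9 was called there in SUDHL5 only under CDK-TCIP1.

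The number of histone genes with a total Pol II peak followed the replicate. Peaks at members made up 0.975% to 1.97% of each total Pol II list, against 0.214% to 0.333% of each Ser5P list. The Ser5P lists were longer, at 10816 to 17784 peaks, so these shares do not compare like with like. Peaks at members numbered 2 to 50 in the total Pol II lists and 36 to 40 in the Ser5P lists. Members with a peak were 26, 44 and 30 at 2 h, 3, 46 and 25 at 4 h, and 17, 44 and 28 under DMSO, in the order of replicates 1, 2 and 3. The lists held 1214, 4000 and 2385 peaks at 2 h, 138, 3196 and 1572 at 4 h, and 710, 3229 and 2028 under DMSO. Replicate 2 was the longest and replicate 1 the shortest in each group. Peaks in every list were found at 22 members at 2 h (background 3.84%), 3 at 4 h (background 0.534%) and 15 under DMSO (background 2.27%). The 3 at 4 h were H2AC16, H1-5 and H4C16. Treated and DMSO lists together held a peak throughout at 14 members for 2 h (background 1.85%) and at the same 3 for 4 h (background 0.499%). No member was gained at 2 h (background 0.17%) or 4 h (background 0%), and none was lost at 2 h (background 0.00499%) or 4 h (background 0.0299%).

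Members with a Pol II peak averaged 33.3 ± 9.45 at 2 h and 29.7 ± 13.6 under DMSO (SD, n = 3 each, exact permutation p = 0.80). At 4 h they averaged 24.7 ± 21.5, which differed from DMSO by −5.00 (exact permutation p = 0.80). Without treated replicate 1 the difference at 4 h was 5.83, and without treated replicate 2 that at 2 h was −1.67. Neither direction thus held. H4C16 had a fold of 13.1, 17.8 and 12.4 at 2 h, 3.48, 19.1 and 12.6 at 4 h, and 10.5, 10.3 and 12.1 under DMSO. All 3 lists at 2 h were above all 3 DMSO lists at this gene, and the lists at 4 h were not. Within replicate 2 alone, 42 members had a Pol II peak in all 3 lists, against 18 within replicate 3 and 3 within replicate 1. Members with peaks of other targets but no Pol II list included H2AC18, H4C15, H2AC19, H2BC6, H3C7, H2BC9 and H2BC10.

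**Figure D4:**
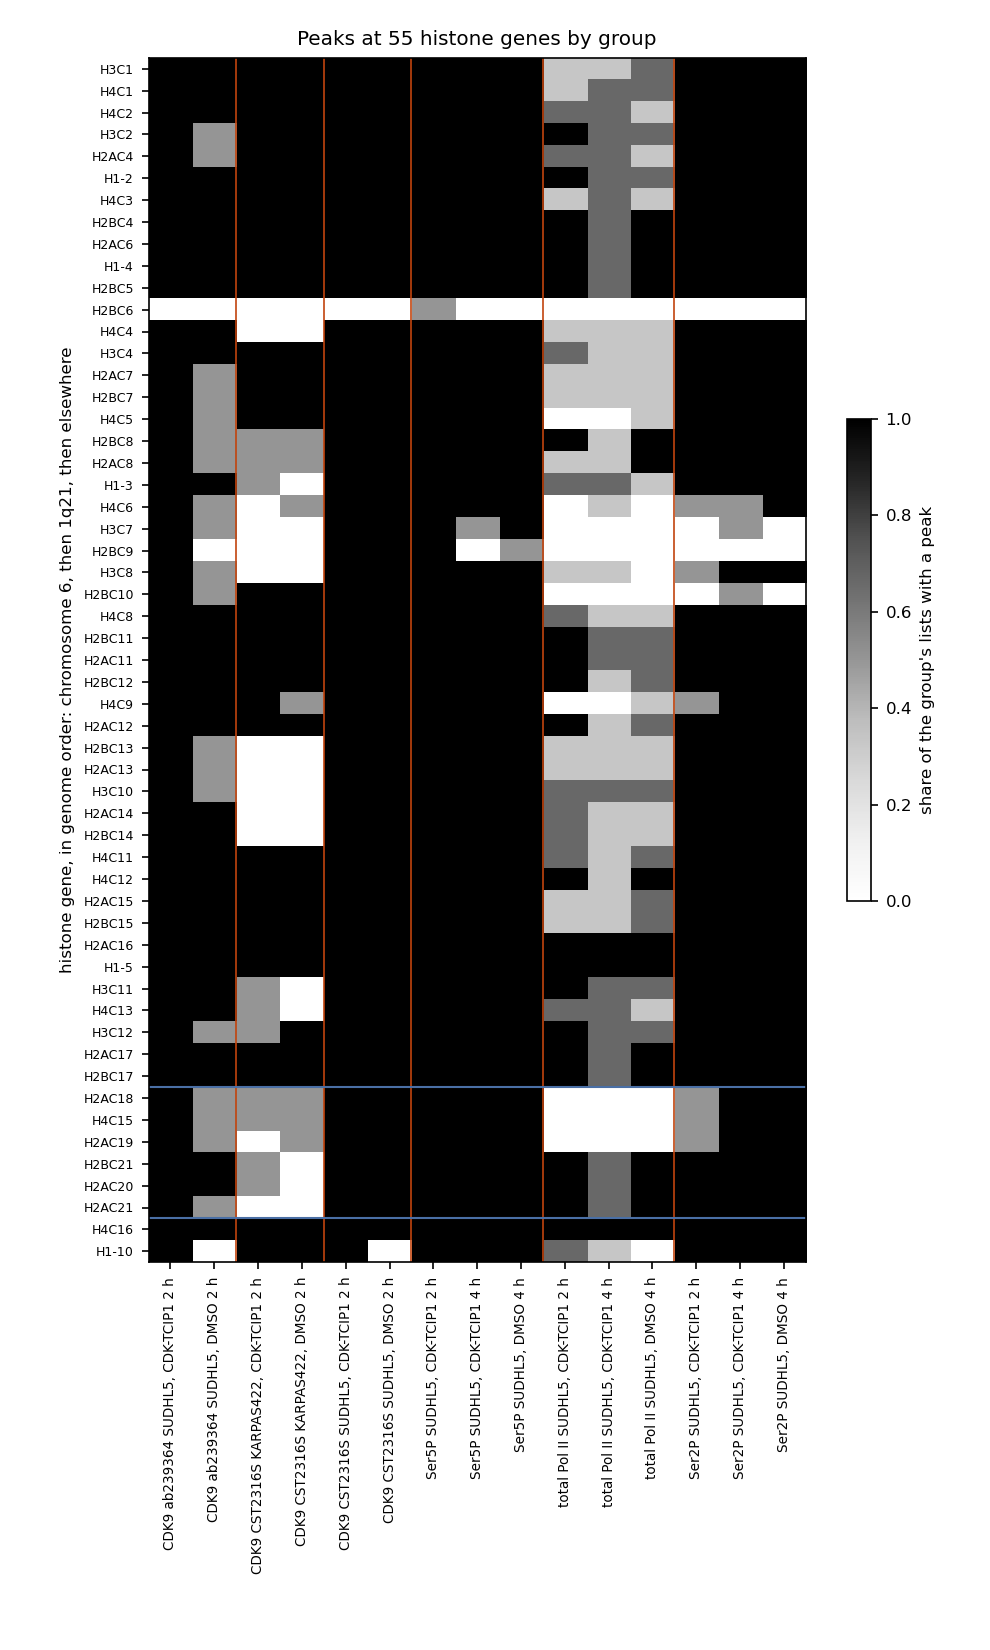
Rows are 55 of the 56 histone genes with any peak, in genome order, columns are the 15 groups with CDK-TCIP1 left of DMSO, and shading is the share of a group's lists with a peak, from 0 (white) to 1 (black). The KARPAS422 and total Pol II columns hold most of the white and grey cells, and the row of H2BC6 is nearly empty.

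Ser2P was found at most of the same genes. Peaks in both lists were found at 45 members at 2 h (background 16.3%), 50 at 4 h (background 32%) and 51 under DMSO (background 28.2%). Treated and DMSO lists together held one throughout at 45 members for 2 h (background 14.7%) and at 50 for 4 h (background 24.5%). None was gained at 2 h (background 0.165%) or 4 h (background 1.58%), and none was lost at 2 h (background 1.72%) or 4 h (background 1.03%). The 2 h lists were uneven, with 45 members among 6519 peaks in replicate 1 and 52 among 16170 in replicate 2, against 52 among 28951 and 51 among 16593 under DMSO. H4C16 led the 45 members with a peak in all 6 lists, at a mean percentile of 99.8. Its fold was 16.5 and 23.6 at 2 h, 20.6 and 27.8 at 4 h, and 26.1 and 18.0 under DMSO. H1-5 had 25.6 and 16.6 at 2 h, 30.2 and 15.04 at 4 h, and 25.5 and 12.9 under DMSO. Replicate 1 was above replicate 2 in all 3 groups at H1-5, by more than the groups differed. The median percentile was 91.2 ± 1.56 at 2 h, 85.2 ± 10.5 at 4 h and 92.7 ± 1.03 under DMSO (SD, n = 2 each, exact permutation p = 0.667 for each treated time).

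Histone genes were also unusual in where the summit, the highest point of a peak, lay. In all 33 lists the median summit at histone genes lay farther past the gene start than at other genes. For total Pol II these medians rest on few summits in some lists, from 1 in replicate 1 at 4 h to 42 in DMSO replicate 2. For Ser2P the list medians ranged from 639 to 728 bp at histone genes and from −12.0 to 51.0 bp at other genes. For Ser5P they ranged from 433 to 696 bp and from 37 to 56 bp, and for Pol II from 562 to 761 bp and from 46.0 to 68.0 bp. CDK9 gave 555 to 662 bp at histone genes and 10.5 to 55.0 bp at other genes with ab239364, and 497 to 551 bp and 158 to 210 bp with CST2316S in SUDHL5. In KARPAS422 these were 492 to 603 bp and 157 to 228 bp. The values cover summits from 1000 bp before to 1500 bp after the nearest start of any gene. Measured instead from the nearest histone gene shorter than 1000 bp, the list medians ran from 255 bp in 1 Ser5P list at 4 h to 818 bp in 1 Ser2P list at 4 h. Since the median histone gene was 495.5 bp long, the histone medians from the nearest start of any gene lay close to or beyond the 3′ end. The 255 bp median of the Ser5P list, from the nearest short histone gene, lay well within that length. With neighbouring genes this close, a summit past a 3′ end can also lie near another histone gene.

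H4C16 lies apart from other members, but not from other genes. LOC105369669, a predicted gene on the same strand, begins 63 bp past its 3′ end, and H2AJ, a replacement H2A gene, lies 3.27 kb away on its other side. In the 412 bp H4C16 the Ser2P summit lay 711 to 1024 bp past the start, beyond the 3′ end in 6 of 6 lists. The CDK9 summit lay beyond the end in all 12 lists, at 462 to 502 bp with CST2316S in SUDHL5, 447 to 483 bp in KARPAS422 and 470 to 1085 bp with ab239364. The Pol II summit was mostly at the start, with a median of 46.0 bp over 9 lists, although 4 lists placed it past the end. Of these summits, 6 of 6 for Ser2P, 7 of 12 for CDK9 and 4 of 9 for Pol II lay within LOC105369669, so the genes cannot be told apart there. At H1-5, which is 797 bp long, the Ser2P summit was past the end in 5 of 6 lists and the CST2316S summit in SUDHL5 in none of 4, at 73.0 to 138 bp.

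**Figure D5:**
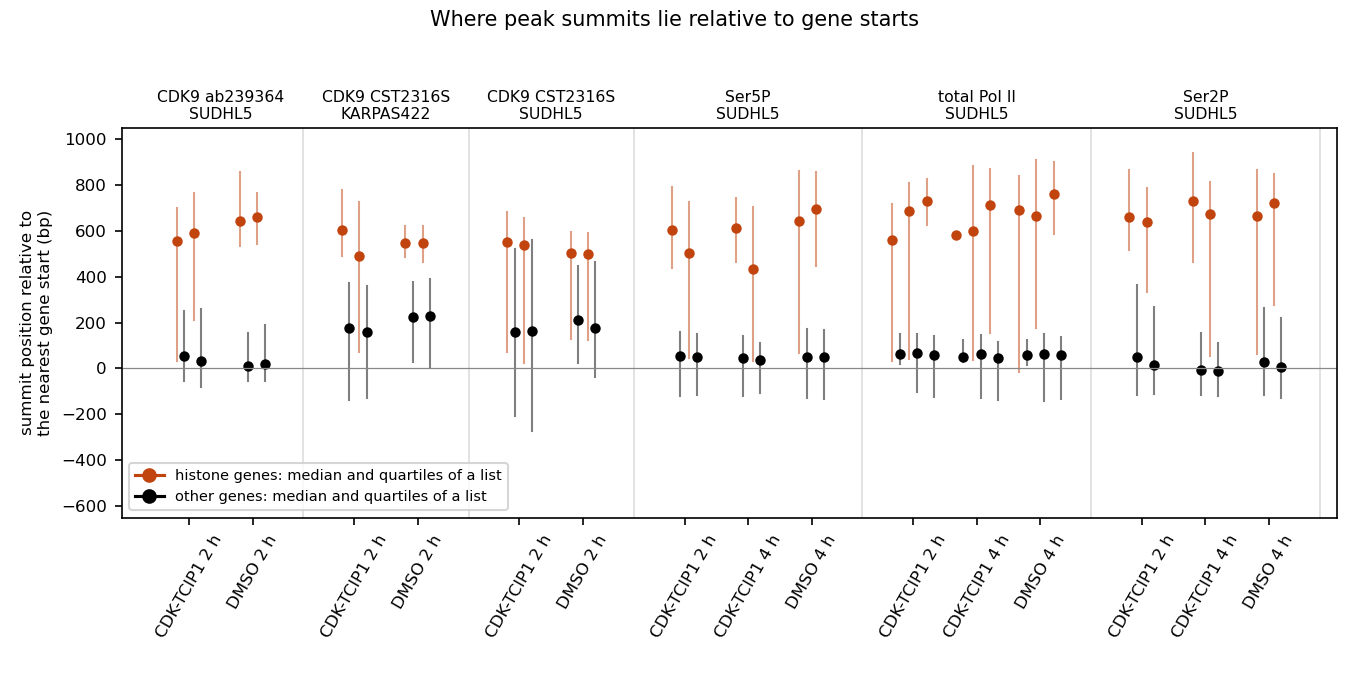
Points are the median summit position of each of 33 lists, in bp past the nearest gene start (vertical axis), for histone genes in orange and other genes in black, with lines from the lower to the upper quartile. Measured from the nearest start of any gene, histone medians lie between 433 and 761 bp and those of other genes between −12.0 and 228 bp.

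The 18 members without any peak were unevenly placed. They were 5 of 11 genes at 1q21 (H2BC18, H3C13, H4C14, H3C14 and H3C15), both genes at 1q42 (H2AC25 and H2BC26), 8 of 55 on chromosome 6 (H2AC1, H2BC1, H1-1, H2BC3, H3C3, H1-6, H3C6 and H4C7) and 3 of 6 elsewhere (H1-7, H1-8 and H2BC12L). Several are germline genes: H1-6, H1-7, H2AC1 and H2BC1 are testis variants, and H1-8 is the oocyte linker histone. By type they were 4 H1, 2 H2A, 5 H2B, 5 H3 and 2 H4 genes. Copies are uncertain, since the rule for reads that match several places is not given in the sources used here. H4C14 and H4C15 at 1q21 had identical promoters (100% of bases) yet 0 and 20 lists with a peak. All 20 peaks of H4C15 were the peak of H2AC18 beside its far end, as H4C15 is annotated over 16.8 kb, and none lay within 1 kb of its own start. H4C11 and H4C12, with 98.3% identical promoters, had 29 and 31 lists with a peak.

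Genes that serve histone supply were also examined, and none of 22 pre-mRNA factors, 10 replacement histones and 12 chaperones had a CST2316S peak in all 4 SUDHL5 lists (background 1.13%), where 53 of 74 histone genes did. Of 22 factors of histone pre-mRNA synthesis and processing, 2 (SLBP, the stem-loop binding protein, and NCBP2) had an ab239364 peak in all 4 lists (background 3.69%) and 4 were gained under CDK-TCIP1 (background 7.57%): POU2F1, ERI1, TUT7 and CCNE1. None of the 22 was gained with CST2316S in SUDHL5 (background 6.31%). In KARPAS422, 6 of 22 had a peak in all 4 lists (background 10.9%), including NPAT and SLBP, and 2 of 22, CASP8AP2 and CCNE2, were gained (background 4.38%). Of 10 replacement histones, which are made outside S phase, H3-3B was gained with CST2316S in SUDHL5 and MACROH2A1 with ab239364, and MACROH2A1 was also gained for Ser5P at 2 h (background 2.73%). Of 12 histone chaperones, 4 were gained with CST2316S in SUDHL5 (ASF1A, ATRX, NAP1L1 and SUPT16H), 2 with ab239364 (ASF1A and DAXX) and 1 in KARPAS422 (DAXX). For Ser2P at 4 h (background 1.58%), CDK2 of the factors and CHAF1B and SUPT6H of the chaperones were gained. No gene of these 3 lists was lost in any of the 9 comparisons. No share gained in these lists was tested.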

How the data were processed

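ChIP-seq peak lists of 33 samples were used, and 10 input samples without a list were not analysed here. The submitters' processing notes name MACS2, Bowtie2, bedtools, deepTools, Picard, SAMtools, FastQC and Trim Galore, with builds hg38 and dm6. The sources used here give no versions, no control for each call and no rule for reads with several matches. Drosophila chromatin was spiked into the CDK9 samples, per the labels' protocols, and no scaled value was used. The labels write the CDK9 antibody as CST2316S in titles, which is kept here, and with its digits in another order in the protocol. The authors deposited a fold enrichment, −log10 p and −log10 q for each peak, called per sample, and a score that was not used. The lowest deposited −log10 q was 1.30, and 25 peaks on other contigs were left out of 286536.

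Genes came from the RefSeq gene table on GRCh38.p14, the same build as hg38. Python 3.11.15 with pandas 2.3.3 and numpy 2.4.6 assigned each peak to genes by at least 1 bp of overlap with a window of 1 kb around either gene end. Gained means a peak in every treated and no DMSO list, lost the reverse. One value per list (members with a peak, median percentile, covered kb) was compared by exact two-sided permutation, with Benjamini-Hochberg adjustment over 9 comparisons. The smallest possible p is 0.333 with 2 against 2 lists and 0.10 with 3 against 3. The counting was tested on simulated data. Named genes were members gained or lost, members with a peak in every list of a target and the best mean percentiles, members with no peak, and gained or lost genes of the other lists. The members and lists were chosen with earlier results of these data known. Gene strand was known for 67 members, which enter the summit positions.

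Alternatives were a −log10 q of at least 5, equal numbers of top peaks, windows of 2.5 kb and 250 bp, the summit within the window, rank by fold, members on chromosomes 6 and 1 only, the replicate block and leaving out each list. Covered kb without each list and with the block, gained Ser2P genes over the gene and 2 kb, and equal top peaks between lines were added after seeing the data. The values of 1 member are not reported here and its row is not drawn.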

Additional observations from a re-analysis of the deposited data

How the results depend on the processing

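Of 482 values under other settings, 402 kept their direction and size class, 40 turned direction and 40 moved. No p was under 0.05. Within 1 comparison these group sizes cannot reach it. Over the 3 CDK9 sets the smallest possible p was 0.0556, and with the antibodies permuted separately it was 0.00926 and the p was 0.222. All values are CDK-TCIP1 minus DMSO, in members, percentile points or kb, or counts of members gained or lost. The share of all genes gained or lost under these settings is not given here. These counts therefore do not show a trait particular to histone genes.

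Equal numbers of top peaks turned or moved 15 of 46 values, and the summit in the window 13 of 37. With equal numbers and ab239364 the difference in members was −8.50 and in rank −4.17, with 1 member gained and 7 lost. With CST2316S in SUDHL5 the difference was −27 members and −25.2 kb, with 0 gained and 18 lost, and in KARPAS422 it was −4.0 members. Pol II at 4 h gave 1.33 members and 0.141 kb, Ser2P at 2 h 1.5 members and 4.62 in rank, Ser2P at 4 h −0.50 members, and the 3 CDK9 sets together −13.2. These lists are shorter by construction.

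A −log10 q of at least 5 gave 6 gained members with ab239364. The 2.5 kb window gave 1 gained with ab239364 and 1 lost for Ser5P at 4 h. The 250 bp window gave 5 gained with ab239364 and 1 in KARPAS422, and differences of 0.50 members for Ser5P at 4 h and −0.50 for Ser2P at 4 h. With the summit in the window, CST2316S in SUDHL5 gave −0.50 members with 3 gained and 3 lost, KARPAS422 had 1 gained and 2 lost, Ser5P at 2 h gave −3.50 members with 1 gained and 4 lost, Ser5P at 4 h had 2 gained and 1 lost, Ser2P at 2 h had 1 lost, and Ser2P at 4 h gave −4.0 members with 3 lost. Members of chromosomes 6 and 1 only gave 1 gained with ab239364, 0 gained with CST2316S in SUDHL5 and 3.21 in rank for Pol II at 4 h. Rank by fold gave 0.491 for Pol II at 4 h, and the gene with 2 kb on each side gave 2 gained for Ser2P at 4 h. The causes were not tested.

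Leaving out 1 list at a time gave 2 to 19 gained members with ab239364. KARPAS422 ranged from −3.50 to 6.5 members and from −10.4 to 5.96 kb, with 0 to 5 gained and 0 to 1 lost. Ser5P ranged from −10.0 to 13.98 kb at 2 h, with 0 to 1 gained, and from −12.5 to 11.5 kb at 4 h, with 0 to 1 gained and 0 to 1 lost. Pol II at 2 h ranged from −2.67 to 10.8 members and from −6.84 to 12.5 kb, with 0 to 1 gained and 0 to 1 lost. Pol II at 4 h ranged from −15.7 to 5.83 members, −10.2 to 11.3 in rank and −15.3 to 6.04 kb, with 0 to 3 lost. Ser2P at 2 h ranged from −6.50 to 0.50 members and from −21.99 to 6.98 kb, with 0 to 6 lost, and at 4 h from −0.50 to 1.5 members with 0 to 2 gained and 0 to 1 lost.

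The replicate block changed none of 27 calls. Differences are the same by construction, for example −13.2 in rank for CST2316S in SUDHL5, and the smallest p a block allows is 0.50 with 2 pairs and 0.25 with 3. Over genes, same-numbered lists deviated together with correlations from −0.0447 to 0.113. For Pol II, replicate 3 alone correlated best with its own number. Where groups held 2 lists, each list correlated best with its own number except with ab239364, at 0.00096 to 0.0503. These correlations were small, and the numbers were not taken as pairs. Even so, Pol II list length followed the number in all 3 groups, and Ser2P at H1-5 was higher in replicate 1 in all 3.

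List length, from 138 to 28951 peaks, limits what a missing peak means. Read depth is unknown, groups hold 2 or 3 lists, neighbouring histone genes share peaks, and near-identical copies depend on an unstated mapping rule. The DMSO lists for Ser5P, Pol II and Ser2P are at 4 h only.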
